A study of Mus musculus with 2 samples.

Results

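The interleukin 12, 23 and 27 family was followed through 7 genes, Il12a, Il12b, Il23a, Ebi3, Il27, Il12rb1 and Il12rb2, taken by gene symbol out of the 32285 genes in the count tables. The members were chosen by their UMIs, and by which cells held them, in these same libraries, so every value of theirs below is a description without a test. A UMI (unique molecular identifier) stands for 1 captured mRNA molecule, and CPM (counts per 1000000) is the UMIs of a gene scaled to 1000000 UMIs of the cells summed.

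The study profiled Hepa1-6 tumours, grown in mice from a mouse hepatoma cell line, by droplet single-cell RNA sequencing. It compared 1 library of control tumour tissue with 1 library after CD147-LYTACs, lysosome-targeting chimaeras named for the surface protein CD147, given at 40 mg/kg every 3 days for 4 doses, with harvest on day 12. The labels name no agent for the control, leave the route of dosing open and give neither strain, age nor the number of tumours behind a library. In both groups the cells were sorted by the leukocyte marker CD45 and put back together at 1 part CD45-negative to 3 parts CD45-positive, so the ratio of tumour to immune cells was set by hand.

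With 1 library in each group, no difference here has a replicate check, and no p-value can be given. Intervals are 95% and cover counting error only: exact Poisson for CPM, exact Clopper-Pearson for shares of cells and exact conditional binomial for ratios. They are too narrow for a gene whose UMIs sit in a few cells. Where a count is 0, the limit given is that of 3 counts.

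Cytokines of this family are made of 2 chains, and they share chains. IL-12 joins p35 (Il12a) to p40 (Il12b), IL-23 joins p19 (Il23a) to the same p40, and IL-27 joins p28 (Il27) to EBI3 (Ebi3). EBI3 with p35 has been described as IL-35. The receptor chain IL-12Rβ1 (Il12rb1) binds p40 and serves both IL-12 and IL-23, whereas IL-12Rβ2 (Il12rb2) completes the IL-12 receptor and the chain encoded by Il23r completes that for IL-23. IL-12 is known for driving interferon-γ in T and NK cells through STAT4, IL-23 for sustaining IL-17-producing lymphocytes through STAT3, and IL-27 for signals through IL-27Rα (Il27ra) and gp130 (Il6st) that can both promote and restrain T cells.

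On GRCm38 (mm10), with positions and types from GENCODE M21, all 7 are protein-coding genes on different chromosomes. Il12a (ENSMUSG00000027776) lies at chr3:68690644-68698547 on the plus strand, Il12b (ENSMUSG00000004296) at chr11:44400063-44414033 on the plus strand and Il23a (ENSMUSG00000025383) at chr10:128296139-128298752 on the minus strand. Ebi3 (ENSMUSG00000003206) lies at chr17:55952640-55957022 on the plus strand and Il27 (ENSMUSG00000044701) at chr7:126589010-126594941 on the minus strand. Of the receptor chains, Il12rb1 (ENSMUSG00000000791) lies at chr8:70808449-70821424 on the plus strand and Il12rb2 (ENSMUSG00000018341) at chr6:67291318-67376188 on the minus strand. Of these genes, 3 overlap a gene on the opposite strand: Ebi3 shares 2252 bases with the antisense gene Gm16712, Il27 shares 103 bases with Apobr, and Il12rb2 shares 6419 bases with Serbp1. The sources used here do not say whether strand was used in counting, so reads from those overlaps cannot be assigned with certainty.

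Il12b was highest in dendritic cells and Il23a in neutrophils of both libraries, while Il12a and Ebi3 were found in neutrophils and in other cells. Neutrophil levels overlapped those of other classes for Il12a in the control and for Ebi3 in the treated library. For Ebi3 in the control library they stood apart. For Il12a in the treated library they stood apart from the next class in rank. Their interval there still overlapped those of NK-gated cells and of some classes with 0 UMIs. The 250 bases before the transcription start are shown for the 3 of these 4 genes that the RefSeq promoter table (GRCm38.p6) holds. The table matched 4 of the 7 members. Capitals mark matches, on either strand, to 4 motifs. The NF-kB-type motif was searched as GGG followed by any 5 bases and then CC. The interferon-response-type motif was 2 copies of GAAA with any 2 bases separating them. The AP-1-type motif was TGANTCA, and the TATA box was searched by the letters TATAAA. The sequences are written 5′ to 3′ on the gene's strand, for Il12b at chr11:44399813-44400062, for the second of the 2 listed starts of Il12a at chr3:68691174-68691423 and for Ebi3 at chr17:55952373-55952622, all on the plus strand.
Il12b: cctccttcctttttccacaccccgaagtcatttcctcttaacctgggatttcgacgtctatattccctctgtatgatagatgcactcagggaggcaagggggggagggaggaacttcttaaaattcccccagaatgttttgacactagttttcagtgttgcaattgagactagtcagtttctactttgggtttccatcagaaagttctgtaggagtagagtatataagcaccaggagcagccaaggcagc
Il12a: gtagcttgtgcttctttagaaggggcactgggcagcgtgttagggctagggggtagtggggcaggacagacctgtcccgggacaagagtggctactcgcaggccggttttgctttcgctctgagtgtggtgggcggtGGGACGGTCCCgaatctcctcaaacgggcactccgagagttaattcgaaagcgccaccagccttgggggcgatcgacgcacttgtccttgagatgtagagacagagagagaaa
Ebi3: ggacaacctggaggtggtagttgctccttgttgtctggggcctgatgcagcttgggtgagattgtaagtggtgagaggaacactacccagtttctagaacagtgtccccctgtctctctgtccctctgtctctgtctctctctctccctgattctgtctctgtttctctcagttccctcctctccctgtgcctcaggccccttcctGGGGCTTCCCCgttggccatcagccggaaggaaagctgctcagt
Both marked stretches are matches to the NF-kB-type motif, which overlap each other within each stretch. They lie at bases -113 to -103 before that Il12a start and -44 to -34 before the Ebi3 start. That pattern occurs in 45.8% of the 32851 upstream windows of this length in the table. None of the 4 patterns was found in the Il12b window, in that of the first Il12a start or in that of Il12rb2. Of all windows, 6.75% held TGANTCA, 2.98% the interferon-response-type motif and 12.4% TATAAA. A match describes letters and does not show binding.

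Cells were assigned to 10 classes by markers that include no member of the family, and a class is called by its gate. Of 14330 barcodes kept after filtering, 11505 were gated, and 18.2% of control and 21.0% of treated barcodes were left ungated. The control and treated libraries held 71 and 50 conventional dendritic-gated, 116 and 334 monocyte or macrophage-gated, 199 and 1450 neutrophil-gated, 3727 and 2839 T or NK-gated, and 1258 and 1247 hepatoma-gated cells. The neutrophil-gated cells were shallow, with medians of 2861 and 2728 UMIs, against 44873.5 and 40545 UMIs in hepatoma-gated cells. All 12 dendritic markers were seen in dendritic-gated cells of both libraries and all 12 neutrophil markers in neutrophil-gated cells, whereas of the 12 hepatoma markers 8 were seen in control and 9 in treated hepatoma-gated cells, with H19, Igf2 and Serpina1a at 0 in both. The libraries shared 24 barcode sequences. In the whole count tables the control library held 8150 barcodes with 143495332 UMIs and the treated library 9219 barcodes with 149812326 UMIs.

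**Figure D1:**
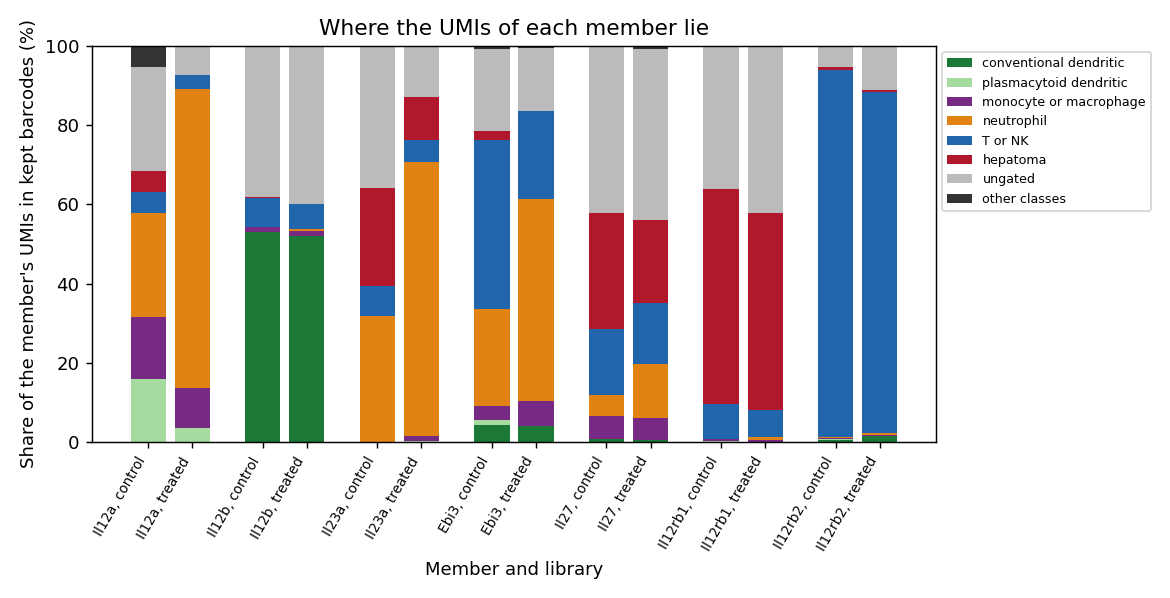
Share of each member's UMIs (vertical axis, % of its UMIs in kept barcodes) that lay in each gated class, for the control and the treated library of each member. Conventional dendritic-gated cells held over 50% of Il12b in both libraries, T or NK-gated cells nearly all gated Il12rb2, and ungated barcodes 42.1% and 43.1% of Il27.

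Il12b, the p40 chain shared by IL-12 and IL-23, was concentrated in very few dendritic cells. In conventional dendritic-gated cells it reached 193 UMIs or 181 CPM (156 to 208) in the control library and 146 UMIs or 261 CPM (221 to 307) in the treated library. Both levels stood apart, beyond their counting intervals, from the next class, which was the monocyte or macrophage gate at 5.29 CPM in the control library and its macrophage subset at 2.48 CPM in the treated library. Only 8 of 71 control cells (11.3%, 5.0 to 21.0%) and 9 of 50 treated cells (18.0%, 8.58 to 31.4%) held any Il12b. Thinning every cell to 1000 UMIs gave expected shares of 5.72% and 9.54%. Hepatoma-gated cells, at several times that depth, held Il12b in 1 of 1258 control and 0 of 1247 treated cells, which allows a treated share of up to 0.241%.

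The UMIs within those dendritic cells were very uneven. The 8 control cells held 73, 50, 48, 7, 7, 6, 1 and 1 UMIs of Il12b, and the 9 treated cells held 62, 54, 11, 5, 5, 4, 3, 1 and 1. In each library, 2 or 3 cells thus carried most of the level of the class. The log2 ratio of treated over control was 0.53 (0.21 to 0.85), and it rested on the gate: requiring a marker lead of 2 times over the second class gave -0.29, and requiring 4 markers gave -0.038. The level of Il12b in dendritic cells therefore had no stable direction between these 2 libraries.

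The subset markers placed most Il12b in cells with the mature, Ccr7-expressing program of dendritic cells that migrate to lymph nodes. Those subsets were too small for levels and are given as counts. Mature Ccr7-gated cells held 106 UMIs in 4 of 19 control cells and 144 UMIs in 7 of 24 treated cells. Cells gated as cDC1, the cross-presenting subset, held 87 UMIs in 4 of 29 control cells, 73 of them in 1 barcode, and 2 UMIs in 2 of 11 treated cells. Cells gated as cDC2 held none in 11 control and 9 treated cells, which allows shares of up to 27.3% and 33.3%.

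**Figure D2:**
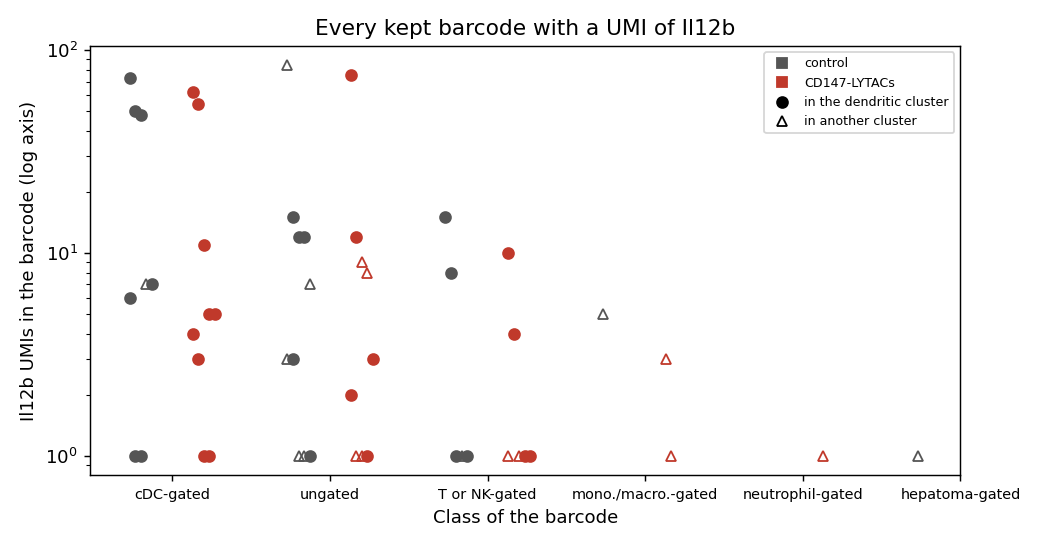
UMIs of Il12b in each kept barcode that had any (vertical log axis), by the class of the barcode and by library, with filled circles for barcodes in the dendritic cluster and open triangles for the others. The 25 control and 27 treated barcodes include dendritic-gated cells with up to 73 and 62 UMIs and ungated barcodes with up to 84 and 75.

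Over all kept barcodes, 25 control and 27 treated barcodes had a UMI of Il12b, and many of them held genes of mature dendritic cells. Of those 25 and 27 barcodes, Ccr7, the lymph node homing receptor, was found in 20 and 20, Ccl22, a chemokine of mature dendritic cells, in 16 and 18, and the dendritic transcription factor gene Zbtb46 in 18 and 15. Other dendritic markers were found in fewer: Flt3 in 11 and 9, Clec9a in 10 and 6, Xcr1 in 6 and 3, Fscn1 in 5 and 11 and Clec10a in 3 and 0. The costimulatory receptor gene Cd40 was present in 17 and 21, and Cd274, which encodes PD-L1, in 23 and 27. The cDC2 marker Cd209a was in 0 of 25 and 0 of 27. Markers of other lineages were present too: the T cell genes Cd3e in 11 and 10 and Cd8a in 9 and 13 of these barcodes, and the hepatocyte gene Alb in 9 and 6. The macrophage genes Csf1r and C1qa were each in 7 and 6, and the neutrophil gene S100a8 in 2 and 4.

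Il12b outside the dendritic gate lay partly in barcodes that clustered with dendritic cells. CD8 T-gated barcodes held 26 and 18 UMIs of Il12b in 5 and 6 barcodes, and 25 and 16 of those UMIs were in barcodes of the dendritic cluster. Ungated barcodes held 139 UMIs in 10 barcodes of the control library and 112 UMIs in 9 barcodes of the treated library, with 43 and 93 of these UMIs in the dendritic cluster. When classes were taken from clusters, Il12b stood at 104 and 128 CPM in the dendritic cluster. The monocyte or macrophage cluster then held 38.0 and 3.22 CPM, and 84 of its 101 control UMIs came from 1 ungated barcode. Within the dendritic cluster, cells with at least 2 of Ccr7, Fscn1 and Ccl22, a division chosen after the values were seen, held 246 of 254 control and 253 of 255 treated UMIs.

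Il12a, the p35 chain that IL-12 needs beside p40, was found in other cells. No UMI of Il12a was seen in 71 control or 50 treated dendritic-gated cells, which allows levels of up to 2.81 and 5.37 CPM (3 UMIs). Among classes with at least 20 cells in each library, before division into subsets, it was highest in neutrophil-gated cells, with 5 UMIs or 5.47 CPM (1.78 to 12.8) in the control and 83 UMIs or 15.4 CPM (12.2 to 19.1) in the treated library. The share of neutrophil-gated cells with a UMI was 2.51% (5 of 199) and 4.28% (62 of 1450), with 1 UMI in each of the 5 control cells. The control interval overlapped that of macrophage-gated cells (3 UMIs, all in 1 barcode), whereas the treated level stood apart from the monocyte or macrophage gate at 5.02 CPM. The treated interval overlapped that of the NK subset (2 UMIs, 0.53 to 15.8 CPM). The log2 ratio was 1.49 (0.21 to 3.15), resting on those 5 control UMIs, and its interval reached below 0 when classes were taken from clusters (1.00, -0.29 to 2.66).

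Low counts of Il12a in other cells came from a few barcodes. Monocyte-gated cells held 10 UMIs in the treated library, 9 of them in 1 barcode, and none in the control library. Plasmacytoid dendritic-gated cells, a type known for type I interferon, held 3 and 4 UMIs in 2 of 18 and 3 of 22 cells, too few cells to be ranked above. With classes from clusters they were at 15.8 CPM (3.25 to 46.1) and 6.16 CPM (1.68 to 15.8). Neutrophils were then at 9.17 and 18.3 CPM. T or NK-gated cells held 1 UMI in 3727 cells and 4 in 2839.

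Il23a, the p19 chain of IL-23, was a neutrophil transcript in both libraries. Neutrophil-gated cells held 76 UMIs or 83.2 CPM (65.5 to 104) in the control library and 623 UMIs or 115 CPM (106 to 125) in the treated library. Every other described class stood apart below them, at no more than 1.70 CPM in the control and 5.02 CPM in the treated library. The share of neutrophil-gated cells with a UMI was 16.6% (33 of 199) and 16.1% (234 of 1450), against 4.13% and 6.98% of the far deeper hepatoma-gated cells. Thinned to 1000 UMIs, the neutrophil shares were 8.17% and 8.26% and the hepatoma shares 0.0897% and 0.182%.

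Within neutrophil-gated cells the log2 ratio of Il23a was 0.47 (0.13 to 0.83). It was 0.092 when classes were taken from clusters and 0.084 when each cell's CPM was averaged with equal weight. The most loaded control cell held 14 of the 76 UMIs, and the 3 most loaded treated cells held 20, 18 and 18 of 623. Because 1450 treated against 199 control cells passed the gate, the treated library held more Il23a in all, 900 against 239 UMIs in kept barcodes, of which neutrophil-gated cells gave 69.2% and 31.8%.

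CD8 T-gated and hepatoma-gated cells of the treated library also held slightly more Il23a. CD8 T-gated cells had 11 UMIs in the control and 42 in the treated library, 0.49 and 2.34 CPM, with 14 of the treated UMIs in 1 cell, and hepatoma-gated cells had 59 and 99 UMIs, 1.01 and 1.87 CPM. The log2 ratios were 2.25 in CD8 T-gated and 0.88 in hepatoma-gated cells. With classes from clusters, T or NK cells had 36 and 32 UMIs, 1.30 and 1.55 CPM. Neutrophil markers were also higher in both of these gates of the treated library. The summed level of the 12-gene neutrophil list was 157 CPM (11 of 12 genes seen, Cxcr2 at 0) and 486 CPM (all 12 seen) in CD8 T-gated cells and 30.2 and 70.4 CPM in hepatoma-gated cells. In neutrophil-gated cells the same list summed to 56972 and 84718 CPM. Relative to neutrophil-gated cells, Il23a in CD8 T-gated cells stood at 0.592% and 2.03%, and S100a8, 1 of the 12 listed genes, at 0.0130% and 0.0786%. The part of neutrophil RNA in these low Il23a levels was not tested.

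Conventional dendritic-gated cells held 0 UMIs of Il23a in the control and 1 in the treated library, so p40 and p19 had their highest levels in different gates. Among neutrophil-gated cells, Il12b was found in 0 of 199 control and 1 of 1450 treated cells.

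Ebi3, the chain that IL-27 shares with IL-35, was spread over myeloid and T cells. In the control library neutrophil-gated cells stood apart at 75 UMIs or 82.1 CPM (64.6 to 103), above conventional CD4 T-gated cells at 31.8 CPM and regulatory T-gated cells at 31.3 CPM. In the treated library the order was regulatory T-gated cells at 51.4 CPM (34.7 to 73.4), neutrophil-gated cells at 257 UMIs or 47.6 CPM (41.9 to 53.8) and conventional dendritic-gated cells at 35.8 CPM (21.9 to 55.3), and the intervals of neighbours overlapped. NK-gated cells held no Ebi3 in 98 control and 89 treated cells, which allows shares of up to 3.06% and 3.37%, and hepatoma-gated cells held 7 UMIs in 2 cells and 1 UMI.

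Ebi3 was lower in the neutrophil-gated cells of the treated library, where 12.3% of cells (178 of 1450) held it against 21.1% (42 of 199) in the control library. Thinned to 1000 UMIs these shares were 4.82% and 8.41%. The log2 ratio was -0.79 (-1.16 to -0.40), and it ran from -1.10 to -0.65 over the 11 alternative settings. In this class the median log2 ratio over the 10174 genes with at least 20 UMIs was -0.15, and 24.1% of them were at least 1.5-fold lower and 13.3% at least 1.5-fold higher in the treated library. Of the 5 members with 20 UMIs there, 3 were at least 1.5-fold lower (Ebi3, Il27 and Il12rb2) and 1 higher (Il12a).

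In conventional dendritic-gated cells Ebi3 stood at 13 UMIs in 13 control cells and 20 UMIs in 14 treated cells, a log2 ratio of 1.55 (0.48 to 2.68) that became 0.26 when classes were taken from clusters. There, 12.4% of 7006 genes were at least 1.5-fold higher and 18.3% at least 1.5-fold lower, and of the 3 members with 20 UMIs, Ebi3 and Il12rb2 were higher and none lower. In this gate 29 of 71 control and 11 of 50 treated cells were gated as cDC1, and the part of this in the ratios was not tested. Conventional CD4 T-gated cells held 75 and 33 UMIs of Ebi3, a log2 ratio of -0.61 (-1.25 to -0.00), and regulatory T-gated cells 22 and 30 UMIs, a log2 ratio of 0.71 (-0.13 to 1.58). Of all genes with 20 UMIs, 9.21% were at least 1.5-fold higher and 7.23% lower in the first, and 10.8% higher and 11.6% lower in the second. Of 3 members in each, Ebi3 alone was past that fold. In T or NK-gated cells without a subset, where 8.18% of genes were higher and 6.03% lower, Ebi3 was again the 1 of 3 members past it, upward, at 4.44 and 7.77 CPM, with an interval that included 0 (-0.16 to 1.81).

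Il27, the p28 chain, was scarce, and phagocytes had its highest levels from more than 1 UMI but few of its UMIs. The monocyte or macrophage gate held 5.79% and 5.65% of them, and the neutrophil gate 5.37% and 13.7%. Hepatoma-gated cells held 29.3% and 21.0%, T or NK-gated cells 16.5% and 15.3% and ungated barcodes 42.1% and 43.1%. Monocyte or macrophage-gated cells held 14 UMIs in each library, 14.8 CPM (8.10 to 24.9) in the control and 6.39 CPM (3.49 to 10.7) in the treated library, and neutrophil-gated cells held 13 and 34 UMIs, 14.2 and 6.30 CPM. Only gamma-delta T-gated cells of the treated library ranked above them, from 1 UMI. In both classes the treated level was lower, with log2 ratios of -1.21 (-2.39 to -0.04) and -1.18 (-2.14 to -0.13), although the first was -0.33 with cells averaged equally. With classes from clusters, neutrophils had 5 and 30 UMIs, 9.17 and 6.95 CPM. The gated values rest on 13 and 13 positive cells of the monocyte or macrophage gate and on 8 and 31 of the neutrophil gate. Hepatoma-gated cells held 71 and 52 UMIs, only 1.22 and 0.98 CPM, and CD8 T-gated cells 1.34 and 1.84 CPM. Apobr, which overlaps the end of Il27, was at 48.3 and 44.9 CPM in hepatoma-gated cells.

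For monocyte or macrophage-gated cells, 15.6% of 8744 genes were at least 1.5-fold higher and 11.8% at least 1.5-fold lower in the treated library. Of the 3 members with 20 UMIs, Il27 and Il12rb2 were lower and Ebi3, at 11.6 and 14.1 CPM, was not past that fold. Neutrophil markers were present in this gate, at a summed 3974 CPM in the control and 10073 CPM in the treated library with 11 of 12 genes seen, against 6919 and 5373 CPM for the gate's own 14 markers. In the treated library the neutrophil list thus exceeded the gate's own, and its part in these values was not tested.

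**Figure D3:**
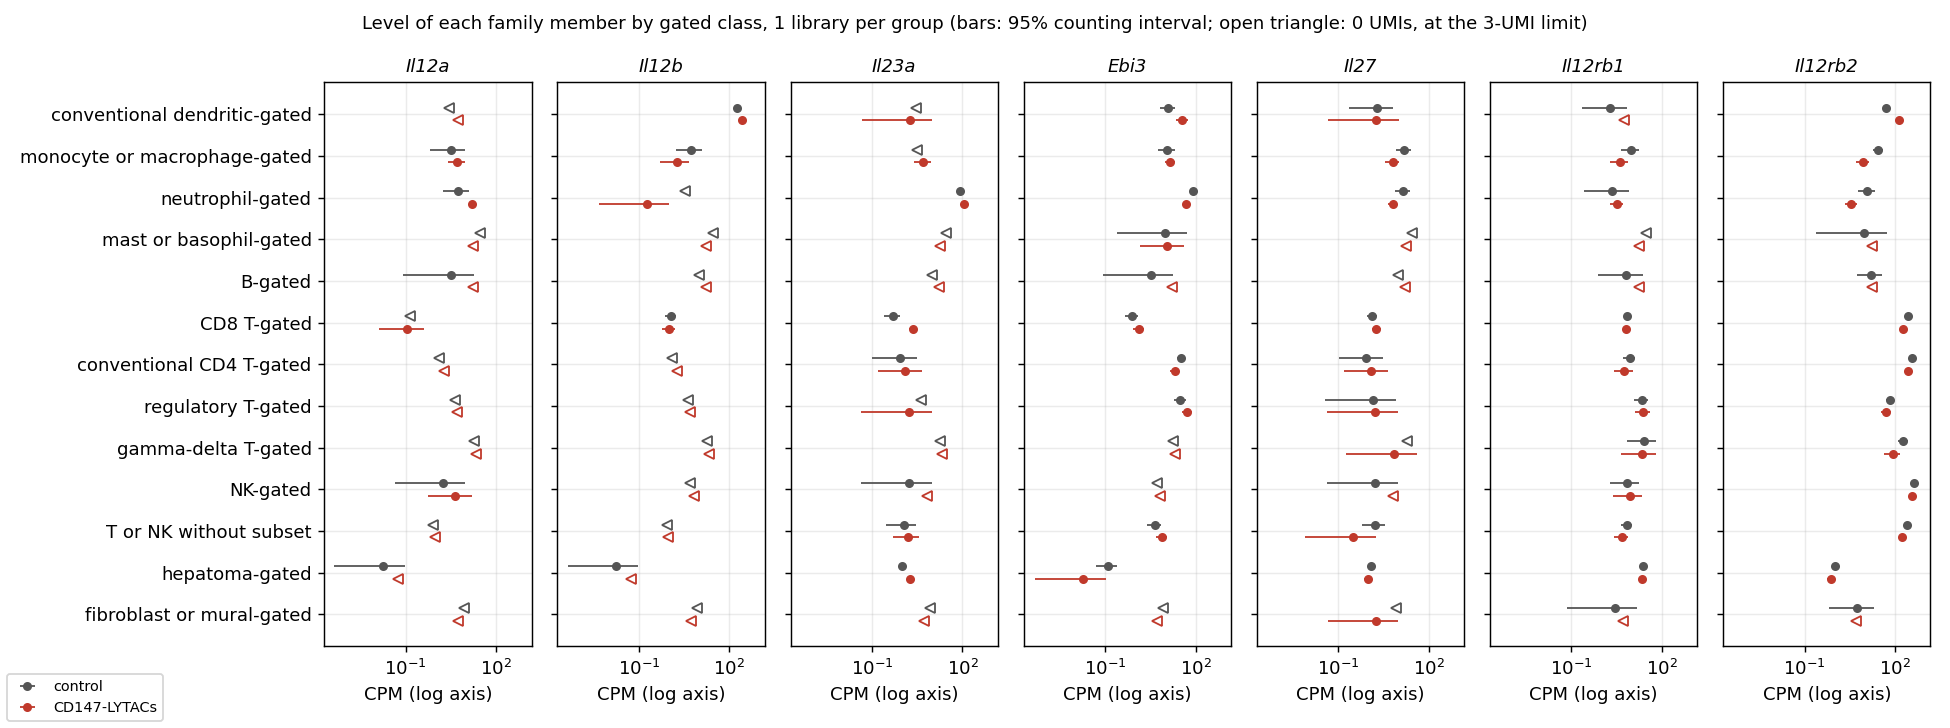
Level of each member (horizontal log axis, CPM) in each gated class with at least 20 cells in each library, with 95% counting intervals, grey for control and red for CD147-LYTACs. Open triangles stand at the 3-UMI limit of a class with no UMI. Il12b peaks in dendritic-gated cells, Il23a in neutrophil-gated cells and Il12rb2 in NK-gated and T-gated cells.

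Both chains of a cytokine were rarely seen in 1 barcode. Il12a and Il12b, the chains of IL-12, were found together in 1 of 6689 control and 0 of 7641 treated barcodes, although 16 and 80 barcodes held Il12a. The chains of IL-23, Il23a and Il12b, were found together in 0 and 2 barcodes, both ungated, although 155 and 431 barcodes held Il23a. Ebi3 and Il27, the chains of IL-27, met in 13 and 18 barcodes, of which 3 and 2 were monocyte or macrophage-gated, 2 and 6 neutrophil-gated, 0 and 4 T or NK-gated and 8 and 6 ungated. Ebi3 and Il12a met in 0 control and 13 treated barcodes, 12 of them neutrophil-gated. Detection of low transcripts is incomplete in droplets, so absence from a barcode does not show absence from the cell, and secreted chains may also meet outside it.

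Among neutrophil-gated cells, Il23a and Ebi3 were detected together in 13 of 199 control cells (33 with Il23a and 42 with Ebi3) and in 35 of 1450 treated cells (234 with Il23a and 178 with Ebi3). Il23a and Il12a were detected together in 1 and 10. Cells with more UMIs in all have more chance to show both genes of a pair, and the treated cells positive for Il12a had a median of 3366 UMIs against 2728 for the gate.

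On the receptor side, Il12rb2, the signalling chain that makes a cell responsive to IL-12, was the most widely detected member and a lymphocyte gene. NK-gated cells held 248 UMIs or 421 CPM (370 to 477) in the control and 168 UMIs or 367 CPM (314 to 427) in the treated library. Conventional CD4 T-gated cells followed at 366 CPM (342 to 391) and 275 CPM (249 to 302). CD8 T-gated cells, the largest lymphocyte group, held 5938 UMIs or 266 CPM (259 to 273) and 3399 UMIs or 189 CPM (183 to 196). The NK and CD4 levels had overlapping intervals in the control library and stood apart in the treated library. Regulatory T-gated cells were far lower at 68.4 and 49.7 CPM, and hepatoma-gated cells held only 1.03 and 0.754 CPM, with Serbp1, which overlaps the end of Il12rb2, at 678 and 648 CPM there.

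Il12rb2 was lower in the treated library in each T or NK subset with at least 20 cells, though not always beyond counting error. The log2 ratio was -0.49 (-0.55 to -0.43) in CD8 T-gated, -0.41 (-0.58 to -0.25) in conventional CD4 T-gated, -1.13 (-2.23 to -0.12) in gamma-delta T-gated and -0.48 (-0.63 to -0.32) in T or NK-gated cells without a subset. The intervals in regulatory T-gated cells (-0.46, -1.18 to 0.23) and NK-gated cells (-0.20, -0.49 to 0.09) included 0. The share of CD8 T-gated cells with a UMI was 67.3% (1799 of 2673) and 57.6% (1180 of 2050), at median depths of 6507 and 6553 UMIs, and 23.5% and 17.4% after thinning. The value in CD8 T-gated cells stayed between -0.51 and -0.46 over the alternative settings.

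These differences can be set beside the share of all genes past 1.5-fold. In CD8 T-gated cells 6.35% of 14160 genes were at least 1.5-fold higher and 4.37% at least 1.5-fold lower in the treated library, and Il12rb2 was not past that fold there. Of the 6 members with 20 UMIs, Il23a and Ebi3 were past it upward, at 0.49 against 2.34 and 0.76 against 1.28 CPM, and none downward. The interval of Ebi3 included 0 (log2 ratio 0.75, -0.21 to 1.75). Of its 17 control and 23 treated UMIs there, 1 and 9 were in barcodes of the dendritic cluster. In gamma-delta T-gated cells, with 28 and 21 cells, Il12rb2 was past it downward, as were 25.9% of 3018 genes, while 21.6% were past it upward.

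Divisions of the CD8 T-gated cells by state, chosen after the values were seen, each had a lower Il12rb2 level in the treated library. Cells with Mki67, a proliferation gene, had 167 and 144 CPM. Cells with both Pdcd1 and Havcr2, which encode the checkpoint receptors PD-1 and TIM-3, had 247 and 191 CPM. Cells with neither Pdcd1 nor Havcr2 had 261 and 180 CPM. In both libraries the level as CPM was thus lowest in the cells with Mki67. Those cells were also the deepest, at medians of 12485.5 and 12856 UMIs, against 4725 and 4752.5 UMIs in cells with neither gene. The share with a UMI of Il12rb2 was 70.4% and 59.7% in cells with Mki67 and 71.8% and 62.3% in cells with Pdcd1 and Havcr2. It was 60.3% and 47.4% in cells with neither, so the order depended on the measure. The group with Mki67 overlaps the others, so the divisions are not independent.

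Dendritic cells went the other way for Il12rb2. Conventional dendritic-gated cells held 55 UMIs in 18 of 71 control cells, 51.6 CPM (38.9 to 67.1), and 77 UMIs in 21 of 50 treated cells, 138 CPM (109 to 172). The mature Ccr7 subset held 25 and 61 of these UMIs, in 9 of 19 and 13 of 24 cells. The make-up of the gate differed, with 29 of 71 control and 11 of 50 treated cells gated as cDC1. The part of this difference in the Il12rb2 level was not tested. The log2 ratio in the gate was 1.42 (0.90 to 1.95), and it was 0.63 when classes were taken from clusters and 2.18 at a marker lead of 2 times. The 12-gene T or NK list summed to 44.1 CPM (10 genes seen, Cd3g and Ncr1 at 0) and 109 CPM (9 seen, Cd3e, Cd2 and Ncr1 at 0) in these dendritic cells, and its part in the Il12rb2 level was not tested.

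In phagocytes Il12rb2 was low, at 27.5 and 8.67 CPM in the monocyte or macrophage gate and 12.0 and 3.52 CPM in the neutrophil gate. The log2 ratio of -1.67 in the monocyte or macrophage gate became 0.16 when classes were taken from clusters and -0.16 when cells were averaged with equal weight. That of -1.78 in the neutrophil gate became -0.31 at a marker lead of 2 times and -0.13 with cells averaged.

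Il12rb1, the chain common to the IL-12 and IL-23 receptors, had a different pattern, with its UMIs mainly in tumour cells. Hepatoma-gated cells held 1342 UMIs or 23.04 CPM (21.8 to 24.3) in the control and 1177 UMIs or 22.2 CPM (20.9 to 23.5) in the treated library, in 49.8% and 44.6% of cells. Thinned to 1000 UMIs, only 2.30% and 2.28% held it, since these cells were the deepest. The log2 ratio was -0.06 (-0.17 to 0.06), which leaves room for only a small difference in counting terms. In hepatoma-gated cells 4.36% of 15653 genes were at least 1.5-fold higher and 4.23% at least 1.5-fold lower, and of the 4 members with 20 UMIs only Il23a was past that fold, upward.

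Among lymphocytes, Il12rb1 was highest in regulatory T-gated cells, at 21.4 CPM (12.0 to 35.3) and 24.0 CPM (13.1 to 40.3), and gamma-delta T-gated cells, at 24.6 and 21.2 CPM from 4 and 3 UMIs. CD8 T-gated cells had 151 UMIs or 6.76 CPM (5.72 to 7.92) and 119 UMIs or 6.63 CPM (5.50 to 7.94). NK-gated cells, highest for Il12rb2, had 4 UMIs of Il12rb1 in each library. Neutrophil-gated cells held 2 and 17 UMIs and dendritic-gated cells 2 and 0.

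With both receptor chains required in 1 barcode, 90 of 2673 control and 39 of 2050 treated CD8 T-gated cells held Il12rb1 and Il12rb2, 3.37% and 1.90%. Here Il12rb1 was the scarce chain, found in 126 and 92 of those cells against 1799 and 1180 with Il12rb2. Hepatoma-gated cells held both in 22 and 18 cells.

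The remaining receptor chains, Il23r, Il27ra and Il6st, come from a list of 48 pathway genes. In gamma-delta T-gated cells Il23r was at 86 UMIs or 529.9 CPM in 28 control cells and 54 UMIs or 380.9 CPM in 21 treated cells. It lay at 0.626 and 0.669 CPM in CD8 T-gated cells. Il23r was not confined to the gamma-delta T gate, where 11 of 28 and 7 of 21 cells held it. It was found in 19 of 289 and 9 of 187 conventional CD4 T-gated cells. T or NK-gated cells without a subset held it in 15 of 547 and 13 of 424 cells. Both Il12rb1 and Il23r were seen in 3 and 1 gamma-delta T-gated cells. Il27ra was at 25.4 and 23.2 CPM in CD8 T-gated cells, with a log2 ratio of -0.13 (-0.32 to 0.06), and Il6st was highest in fibroblast or mural-gated and regulatory T-gated cells, at 204 and 213 CPM in the first and 123 and 111 CPM in the second. Il27ra and Il6st were seen together in 9 of 92 control and 9 of 68 treated regulatory T-gated cells.

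Genes downstream of the receptors did not move as a block in CD8 T-gated cells. Of the 7 genes listed for the IL-12 response all had 20 UMIs, and none was past 1.5-fold in either direction, with a median log2 ratio of 0.00 against -0.03 over all genes. Ifng, the main IL-12-induced cytokine gene, was at 205 and 259 CPM (log2 ratio 0.34), and Gzmb, which encodes the cytotoxic protease granzyme B, at 444 and 538 CPM (0.28). The IL-18 receptor chains Il18r1 and Il18rap were lower, at 287 against 211 CPM (-0.44) and 170 against 137 CPM (-0.31), and the IL-12 signal transducer Stat4 was at 652 and 521 CPM (-0.32). Tbx21, Prf1 and Cxcr3, which encode T-bet, perforin and a Th1 homing receptor, had log2 ratios of -0.04, 0.00 and 0.14.

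In NK-gated cells none of the 6 IL-12 response genes with 20 UMIs was past 1.5-fold, where 8.21% of 6215 genes were higher and 13.5% lower. Il18r1 was at 367 and 271 CPM (-0.44) and Gzmb at 290 and 409 CPM (0.49). Over the whole pathway list, 8 of 41 genes with 20 UMIs in CD8 T-gated cells were at least 1.5-fold higher and none lower, where 6.35% of all genes were higher and 4.37% lower. These 8 were Il1b, Il6, Tnf, Cxcl10, Cd40, Il1r1, Il10 and Socs3. The summed neutrophil list there was 157 and 486 CPM, and its part in these values was not tested.

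Of the 6 IL-23 response genes, 4 had 20 UMIs in gamma-delta T-gated cells, 3 in conventional CD4 T-gated cells and 3 in hepatoma-gated cells. In conventional CD4 T-gated cells 2 of the 3 were at least 1.5-fold lower and 0 higher. There, 7.23% of all genes were lower and 9.21% higher. The values that follow are of gamma-delta T-gated cells and come from few cells. Il17a, the hallmark cytokine of IL-23-maintained lymphocytes, was at 195 UMIs or 1202 CPM in the control and 35 UMIs or 247 CPM in the treated library, a log2 ratio of -2.28 (-2.85 to -1.76), and Il22 at 61.6 and 155 CPM. Of the 4 such genes with 20 UMIs, 3 were past 1.5-fold downward and 1 upward, in a gate where 25.9% of all genes were past it downward and 21.6% upward. Il17f was at 20 and 1 UMIs. In these few cells the summed hepatoma list was 43.1 CPM in the control (3 of 12 genes seen) and 3294 CPM in the treated library (4 seen), and its part in these values was not tested.

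Inducers of the ligand genes and companion cytokines were read in the cells that held the ligands. In dendritic-gated cells 27 of the 48 pathway genes had 20 UMIs, with 4 at least 1.5-fold higher and 3 lower, where 12.4% of all genes were higher and 18.3% lower. The interferon-γ-induced chemokine genes Cxcl9 and Cxcl10 were lower, at 564 against 152 CPM and 158 against 59.1 CPM, and Il1b was higher at 849 against 2695 CPM, as were Socs3 (73.1 against 149 CPM), Il6 (4 against 18 UMIs) and Batf3 (49.7 against 77.0 CPM). The third lower gene was Tlr3, with 23 and 7 UMIs. Cd40, which licenses IL-12 production, was at 125 and 140 CPM, Irf8, a factor needed for cDC1 and Il12b, at 810 and 668 CPM, and Rel, an NF-kB subunit gene linked to Il12b, at 1069 and 1184 CPM. The summed neutrophil list in this gate was 771 and 1309 CPM, with 9 and 7 of 12 genes seen. Cells gated as cDC1 were 29 of 71 in the control and 11 of 50 in the treated library. The part of this difference in make-up in these values was not tested.

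In neutrophil-gated cells 32 pathway genes had 20 UMIs, and 13 were at least 1.5-fold lower and 2 higher, where 24.1% of all genes were lower and 13.3% higher. The 2 higher were 1 gene of the IL-23 response list (log2 ratio 1.44) and 1 inducer. Cxcl9 was at 194 and 12.8 CPM (log2 ratio -3.92), Cd40 at 62.4 and 9.44 CPM (-2.72), Cxcl10 at 348 and 79.6 CPM (-2.13) and Irf8 at 102 and 36.5 CPM (-1.48), whereas Nfkb1 was at 1480 and 1720 CPM and Tnf at 1358 and 1363 CPM. Summed over the same gate, Ebi3 and Il27 were lower, as were Cxcl9, Cd40, Cxcl10 and Irf8, and Il23a was not. Whether single cells shared these differences was not tested. The summed dendritic list in the neutrophil gate was 135 CPM in the control and 45.9 CPM in the treated library, with 10 of 12 genes seen and Cd209a and Fscn1 at 0 in both, and its part in these values was not tested. In monocyte or macrophage-gated cells 33 pathway genes had 20 UMIs, 9 at least 1.5-fold lower and 3 higher, where 11.8% of all genes were lower and 15.6% higher. Cxcl9 was lower there as well, at 1033 against 260 CPM, and so was Irf4, at 30 against 15 UMIs. Of the 3 higher genes, 2 were the only IL-12 response genes with 20 UMIs there (median log2 ratio 1.14) and 1 was a kinase or STAT gene.

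**Figure D4:**
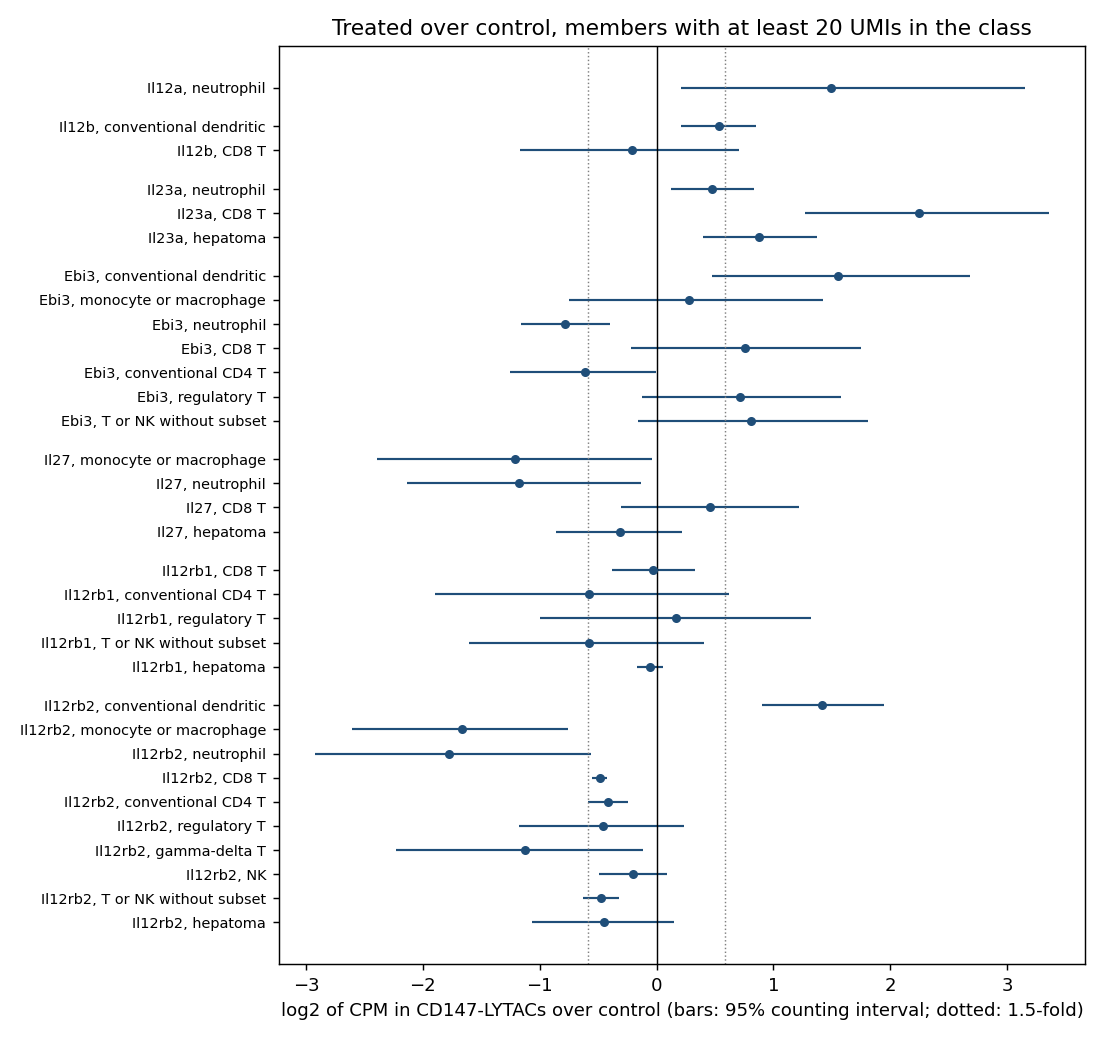
Log2 ratio of CPM in the CD147-LYTACs library over the control library (horizontal axis) with 95% counting intervals, for each member in each gated class where it had at least 20 UMIs, and dotted lines at 1.5-fold. Il12rb2 lies left of 0 in T and NK-gated classes and right of 0 in dendritic-gated cells, and Ebi3 left of 0 in neutrophil-gated cells.

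Genes with the most similar patterns were sought over the 15 described classes and subsets of both libraries, 30 points in all that share libraries and, for subsets, cells. The measure was Pearson's r of log2(CPM + 10), given as a description. Il12b was nearest to Cd209a (0.99), Slc44a5, Timd4, Btnl1 and P2rx5, although no Il12b-positive barcode held Cd209a, so this likeness was between classes and not between cells. Il23a was nearest to Il1f9 (0.99), an IL-36 cytokine gene, and to Gm34643, Mirt2, 9830107B12Rik and Asprv1. Il12a was nearest to Kcnj2 (0.87), Tgm1, Gm14023, Ofcc1 and Gm5149, and Ebi3 to Ehd1 (0.82), Cflar, Marcksl1, 1700066B17Rik and Pts.

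Il27 was nearest to Tfec (0.91), Tlr8, Ly6i, Gm37168 and Gm5150. Il12rb2 was nearest to Abcb1a (0.93), 4930444A19Rik, Rnf166, Cd226 and Stk24, and Il12rb1 to Naa20 (0.75), Fbxo31, Ppp2cb, Ccdc130 and Ppp1r16a. Between members, r was 0.76 for Il12a and Il23a and 0.58 for Ebi3 and Il23a. It was -0.12 for Il12a with Il12b, -0.07 for Il12b with Il23a and 0.21 for the receptor chains Il12rb1 and Il12rb2.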

How the data were processed

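The authors deposited, for each of 2 droplet libraries, the UMI counts of every gene in every barcode, made with Cell Ranger 3.0.2 on mm10 per the submitters' processing notes, whereas the matrix headers name 7.1.0. The annotation and the use of intronic or antisense reads are not given in the sources used here.

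Barcodes with at least 500 UMIs, 300 genes and at most 15% mitochondrial UMIs were kept, and those with the highest Scrublet scores (scanpy 1.11.5) were removed at 0.8% per 1000 barcodes, 402 in the control and 535 in the treated library. This left 6689 and 7641 barcodes. A barcode took the class with the largest share of its markers detected, with at least 3 detected and a share 1.5 times that of the second class. Of the gated barcodes, 2273 had a lead under 2 times, and 1990 ungated ones a lead of 1 to 1.5 times. As an alternative, classes came from Leiden clusters (2000 variable genes, 30 components, 15 neighbours, resolution 1).

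UMIs were summed per library and class (scipy 1.17.1, intervals of 95%). Classes with 20 cells in each library were described, ratios needed 10 UMIs, the background genes needed 20, and a zero was read as up to 3 UMIs. Shares were also given as the mean over all possible draws when each cell is thinned to 1000 UMIs. No test was possible with 1 library in each group. The text names all members, some of the pathway genes with 20 UMIs and the 5 genes most like each member. Other divisions are marked where used. The ratio and interval were run on simulated Poisson counts, the model that the interval assumes, so uneven counts between cells were not tested. The members, marker lists and pathway list were chosen with earlier results of these data known. UMIs correct for PCR copies, and the intervals cover counting error only.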

Additional observations from a re-analysis of the deposited data

Results flagged for a closer look

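Ebi3 and Il12rb2 differed between the libraries in opposite directions in different cells, with counting intervals that did not reach 0. The difference between classes was not tested. The log2 ratio of Ebi3, treated over control, was 1.55 in conventional dendritic-gated, -0.79 in neutrophil-gated and -0.61 in conventional CD4 T-gated cells. That of Il12rb2 was 1.42 in conventional dendritic-gated cells, against -1.67 in monocyte or macrophage-gated, -1.78 in neutrophil-gated, -0.49 in CD8 T-gated, -0.41 in conventional CD4 T-gated and -1.13 in gamma-delta T-gated cells and -0.48 in T or NK-gated cells without a subset. With classes from clusters, Ebi3 in dendritic cells was at 0.26 and Il12rb2 in monocytes or macrophages at 0.16. The dendritic gate held different shares of cDC1-gated cells in the libraries, and the part of this in its ratios was not tested.

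Barcodes that passed no gate entered no comparison between gates, yet they held over 20% of the kept UMIs of several members. In the control library they held 5 UMIs of Il12a, 139 of Il12b, 86 of Il23a, 64 of Ebi3, 102 of Il27 and 886 of Il12rb1. In the treated library they held 112 of Il12b, 107 of Il27 and 988 of Il12rb1. Their median depth was 17249 UMIs in the control and 14976 in the treated library. Of the 102 control UMIs of Il27, 22 and 14 lay in 2 barcodes, and of the 107 treated UMIs, 12 and 10 did.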

How the results depend on the processing

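Each of 34 log2 ratios (a member with at least 20 UMIs in a class) was recomputed under 11 settings, which gave 372 values, 2 having no value because a library held no UMI. Of these, 345 stayed within the counting interval of the reported value and 24 left it. A further 3 turned sign, counted only for ratios whose interval excluded 0. Sign changes of ratios whose interval included 0 were not counted. Ebi3 in monocytes or macrophages was at 11.6 and 14.1 CPM as gated and 16.2 and 13.6 CPM with classes from clusters. No value left its interval when cells were filtered at 1000 UMIs and 500 genes or at 10% mitochondrial UMIs, when scaling left out mitochondrial, ribosomal protein, haemoglobin and 4 further genes, or when the barcode with the most UMIs of the member was left out of each library. Turns of sign were counted for Il12b in dendritic-gated cells at a marker lead of 2 times (-0.29) and with at least 4 markers (-0.038). Another was counted for Il12rb2 in monocyte or macrophage cells with classes from clusters (0.16). Il23a in neutrophils moved to 0.092 with classes from clusters and 0.084 with cells averaged equally, and Il12rb2 in NK-gated cells moved to -0.51 at a lead of 1 times and -0.53 with at least 4 markers. Il12a, Ebi3 and Il27 in the classes where each was highest, Il12rb1 in hepatoma-gated cells and Il12rb2 in CD8 T-gated cells kept their direction and stayed within their intervals under all 11 settings. Without removal by doublet score, Ebi3 and Il27 met in 16 control and 24 treated barcodes, and thinned to 3000 UMIs in an expected 2.85 and 2.73. No paired analysis was possible because each group has 1 library. Depth limits Il12a and Il27, with 5 and 83 UMIs of Il12a in neutrophil-gated and 14 and 14 of Il27 in monocyte or macrophage-gated cells.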
